A study of Mus musculus with 3 samples.

Results

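Among the small RNAs sequenced with the germ cell proteins Tdrd1 and Mili from mouse testis, 2032 of 2219118 distinct listed sequences (0.0916%) came from structural RNA genes. The term covers the GENCODE vM21 gene types snRNA, snoRNA, scaRNA, misc_RNA, ribozyme and rRNA. A sequence was counted when it matched a transcript of such a gene exactly, over its whole length, in the sense direction and on the chromosome given in the list. The 20 kb of chromosome 17 that end at position 40000000, which held a further 115 such sequences, were left out. The 2032 sequences lay in 319 of 3879 annotated genes and on 20 chromosomes.

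The series holds 3 libraries from C57BL/6 testes, 1 per group. The first was made from RNA bound to Tdrd1 in adults, the second from RNA bound to Mili in Tdrd1 knockouts at 15 days after birth, and the last from RNA bound to Mili in adult wild types. The knockout therefore differs from the wild type in age as well as in genotype, and the labels give neither the knockout allele nor the number of animals. The deposited list joins the series without a library, a read number or a strand, so all values below are counts of distinct sequences in the pooled list, an abundant and a rare RNA weigh the same, the depth of each library is unknown, and no comparison between the immunoprecipitates could be made.

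Tdrd1 is a Tudor-domain protein that binds Mili, and Mili is a Piwi protein whose guides, the piRNAs, mostly start with U. Small nuclear RNAs (snRNAs) form the core of the spliceosome, the machine that removes introns. Small nucleolar RNAs (snoRNAs) guide chemical modification of ribosomal RNA. Their C/D box class directs methylation and their H/ACA class pseudouridylation, and small Cajal body RNAs (scaRNAs) do the same for snRNAs. The type misc_RNA holds 7SK (Rn7sk), which restrains transcription elongation, the Y RNAs (Rny1 and Rny3), which bind the Ro protein, the vault RNA and conserved segments of long noncoding RNAs. The ribozymes are the RNAs of RNase MRP (Rmrp), which processes ribosomal RNA, and RNase P (Rpph1), which trims transfer RNA. The rRNA entries counted here are 5S rRNA genes and their copies.

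The sequences below were chosen to show what the pieces of the leading genes look like. Each is the longest listed sequence at the 5′ end of its gene that had most listed 3′ ends, written as DNA from 5′ to 3′. Positions are on mm9, with the strand of the annotated gene. Capitals mark the first base in this group.
Rn7sk (chr9:78023167-78023195, minus strand): Attgtaggagaacgtagggtagtcaagct
Rmrp (chr4:43505774-43505805, minus strand): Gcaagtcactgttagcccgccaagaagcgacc
Rny3 (chr6:47731623-47731653, plus strand): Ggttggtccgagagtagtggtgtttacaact
Rny1 (chr6:47738149-47738179, minus strand): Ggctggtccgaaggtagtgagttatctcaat
Rnu11 (chr4:131826100-131826128, minus strand): Aaaaagggcttctgtcgtgagtggcacac
Gm22710 (chr1:120355779-120355808, minus strand): Tgaacgcgtagtgagggcagtactgctaac
Gm27937 (chr11:3546945-3546975, minus strand): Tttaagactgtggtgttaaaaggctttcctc
Gm23799 (chr12:57157692-57157720, minus strand): Tgctgatctcctctgaattcggaagctaa
n-R5s136 (chr8:126123821-126123849, minus strand): Gacctcgtctgatctcggaagctaagcag

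In a further group, capitals mark the letters of the Sm site (ATTTTTG), where Sm proteins bind snRNAs, or of the C box core (TGATGA) of C/D box snoRNAs.
Gm24265 (chr5:115939564-115939593, plus strand): tgcaatatagtcggcattggcaATTTTTGa
Gm24407 (chr5:115940359-115940389, plus strand): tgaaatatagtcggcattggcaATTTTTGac
Gm25360 (chr1:72272889-72272920, plus strand): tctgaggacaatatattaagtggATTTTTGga
Gm22973 (chr12:60141408-60141435, plus strand): tatattaaatggATTTTTGggaatagga
Snord118 (chr11:68886974-68887003, plus strand): tagaaaaTGATGAttggagcttgcatgatc
Gm23212 (chr1:162966813-162966843, plus strand): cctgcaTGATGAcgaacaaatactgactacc

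The sequences from structural RNAs were of piRNA size but started with U less often than the rest of the list. U was the first base of 903 of the 2032 sequences, 44.4% (exact Clopper-Pearson 95% interval 42.3 to 46.6%), against 68.6% in the rest of the list (68.6 to 68.7%). U was nonetheless more frequent at the first position than in the same transcripts as a whole, where it made up 26.5% of bases, and than at position 2, where it made up 23.8%. A, C and G started 23.6, 16.2 and 15.8% of the structural RNA sequences, against 14.5, 8.81 and 8.01% in the rest. A at position 10, a mark of piRNAs made by the amplification cycle, stood at 27.2% (25.3 to 29.2%) against 32.5% in the rest. Intervals cover counting error only, and since neighbouring sequences of the same transcript are not independent, they are too narrow.

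Lengths differed little. The most common length was 27 nt in both sets, with means of 27.1 ± 2.01 nt in structural RNA sequences and 27.1 ± 1.69 nt in the rest (SD over sequences). Lengths of 24 to 32 nt made up 95.7% (94.7 to 96.5%) against 98.1%, and 86 sequences (4.23%, 3.4 to 5.20%) were under 24 nt against 1.89% in the rest. The protocol eluted RNA of about 28 to 30 nt from a gel, and the part of that cut in the lengths was not tested.

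**Figure D1:**
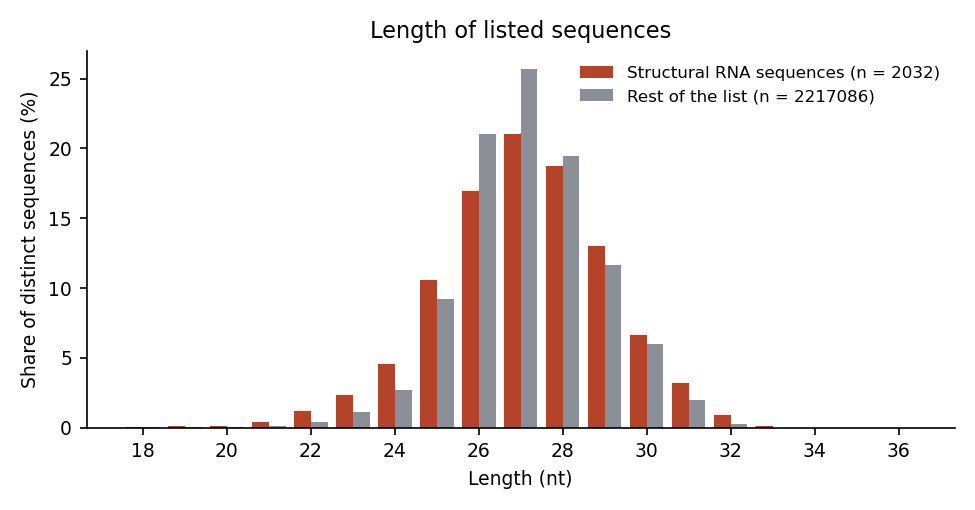
Share of distinct sequences (vertical axis, percent) at each length from 18 to 36 nt (horizontal axis) for structural RNA sequences (red, n = 2032) and the rest of the list (grey, n = 2217086). Both peak at 27 nt, with 21% of structural RNA sequences and 25.7% of the rest.

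The first base differed between gene types. Sequences from rRNA genes started with U in 64.8% (58.0 to 71.2%, n = 213), those from snRNA genes in 51.3% (47.7 to 54.9%, n = 754) and those from misc_RNA genes in 46.9% (41.7 to 52.1%, n = 371). Ribozymes followed with 36.7% (29.2 to 44.7%, n = 158), snoRNA genes with 29.7% (25.6 to 34.2%, n = 454) and scaRNA genes with 13.4% (6.89 to 22.7%, n = 82). The intervals of neighbours in this order overlapped, except that rRNA lay above snRNA and snoRNA above scaRNA. Single genes weighed on this order. Without Rn7sk, misc_RNA sequences started with U in 56.1% (49.8 to 62.3%), above snRNA. Without Gm23799, rRNA was at 61.0% (53.6 to 68.0%), which overlaps snRNA, and without Mir1839, an annotated microRNA gene, scaRNA was at 16.7% (8.62 to 27.9%), which overlaps snoRNA. Leaving out n-R5s136 instead put rRNA at 70.8% (63.9 to 77.2%), clear of snRNA, with the 68.6% of the rest inside its interval. Shares also differed with the presence of annotated copies. In genes sharing no window of 27 nt with another annotated place, U started 91.7% of rRNA sequences (77.5 to 98.2%, n = 36). For snRNA it was 62.1% (53.9 to 69.8%, n = 153) and for misc_RNA 62.9% (55.8 to 69.7%, n = 197). In genes sharing windows these shares were 59.3% (51.7 to 66.6%), 48.6% (44.5 to 52.7%) and 28.7% (22.1 to 36.1%). Without shared windows, rRNA lay above the 68.6% of the rest, which the snRNA and misc_RNA intervals include. Gm23799 gave 26 of these 36 rRNA sequences and Gm22710 102 of the 153 from snRNA. Rn7sk gave 116 of the 174 misc_RNA sequences in genes sharing windows. The snoRNA share went the other way, at 26.7% (21.7 to 32.2%) against 34.9% (27.7 to 42.7%), intervals that overlap. Ribozyme and scaRNA intervals overlapped too. The part of copies was not tested. Over all genes the snoRNA share was close to the U content of the snoRNA transcripts (28.3%). The shares of rRNA, snRNA, misc_RNA and ribozymes were above the U content of theirs (24.4, 27.6, 24.2 and 17.2%). The scaRNA share was below the U content of its transcripts (25.2%), but without Mir1839 its interval (8.62 to 27.9%) includes that value. scaRNA sequences, of which 46.3% started with A and 35.4% with G, were also the shortest, with a mean of 25 ± 2.18 nt and 22.0% under 24 nt (13.6 to 32.5%). Mir1839 gave 16 of these 82 sequences, all with A first. Without it A stood at 33.3% (22.2 to 46.0%) and G at 43.9% (31.7 to 56.7%), the mean length was 25.4 ± 1.89 nt, and 15.2% were under 24 nt (7.51 to 26.1%).

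**Figure D2:**
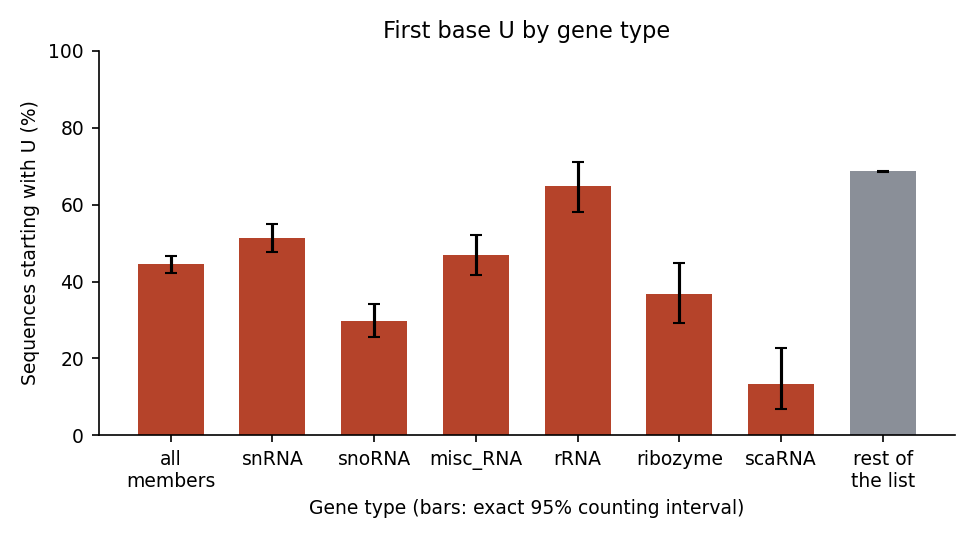
Percent of distinct sequences starting with U (vertical axis) for all structural RNA sequences, for each gene type (red) and for the rest of the list (grey), with exact 95% counting intervals as bars. Each gene type lies below the 68.6% of the rest, though the upper bound for rRNA reaches 71.2%, and scaRNA is lowest at 13.4%. Without the gene n-R5s136, rRNA is at 70.8% (63.9 to 77.2%). In rRNA genes sharing no window of 27 nt with another annotated place it is at 91.7% (77.5 to 98.2%, n = 36).

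Few genes held most of the sequences. Of 314 genes left after merging entries annotated at the same place, 152 had 1 sequence, 123 had 2 to 9 and 39 had 10 or more. The 10 richest genes held 816 sequences, 40.2% (38.0 to 42.3%), and the 25 richest held 1257, 61.9% (59.7 to 64.0%). The 100 windows of 20 kb with most sequences, which hold 20.3% of the rest of the list, held 6 of the 2032 (0.295%, 0.108 to 0.641%), and all 6 matched Gm23098, a misc_RNA entry on chromosome 6.

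Sequences that occur at several places in the annotation were nearly absent from the list. Across the structural RNA transcripts, apart from the ribosomal entry CT010467.1, 75939 of 419285 windows of 27 nt (18.1%) were shared by genes at different places. Of these shared windows 0 were listed, which allows a share of up to 0.00395% (3 counts of the total), whereas 430 of the 343346 windows at 1 place (0.125%) were listed. Of the 2032 sequences of all lengths, 2031 matched 1 annotated place and 1 matched several. The sources used here do not give how the authors treated sequences with several genome positions, and copies outside annotated genes could not be searched without a genome. The named genes of U1 (Rnu1a1, Rnu1b1, Rnu1b2 and Rnu1b6), U2 (Rnu2-10), U6 (Rnu6), the signal recognition particle RNA 7SL (Rn7s1 and Rn7s2) and 5S rRNA (Rn5s) had every window shared and had 0 listed sequences. The named U5 gene Rnu5g, with 86.7% of windows shared, also had 0, and the U12 gene Rnu12, with 88.0% shared, had 1. Other named genes were at or near 0 with no window shared among the transcripts compared. The gene n-R5-8s1 (5.8S rRNA, 122 windows) had 0 listed sequences and Rnu73b (45 windows) had 1. For genes with every window shared, a count of 0 does not show that their RNA was absent from the immunoprecipitates. Nor does it for n-R5-8s1, whose windows were not compared with CT010467.1 or with the genome.

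Rn7sk, the gene of 7SK, had most sequences (116, or 35.0 per 100 nt), on chromosome 9 from 78023110 to 78023440. Gene spans are on mm9 and were derived from the listed positions of the matching sequences, which gave a single span for 318 of the 319 genes. All 116 started between positions 217 and 283 of the 331-nt transcript, and the windows of 27 nt that are not shared with annotated copies start between 221 and 297. Its 36 distinct 5′ ends were spread without a single preferred one, the most used (positions 246 and 269) having 8 sequences each, and 26.7% of sequences started with U (18.9 to 35.7%).

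In the snRNA genes Gm24265 and Gm24407 the listed starts and the unshared windows fall together most sharply. Whether shared windows set where sequences were listed was not tested. They lie 795 bp apart on chromosome 5 (starts at 115939468 and 115940263), and their 141-nt transcripts are 98.6% identical, with 2 differences. Gm24265 had 92 sequences and Gm24407 had 58. In both genes the first sequence started at position 62 and the last at position 99, exactly the first and last starts of windows that tell the genes apart from all annotated copies. In both, position 97 was the most used 5′ end, with 8 sequences in Gm24265 and 10 in Gm24407, and the printed sequences from it run through the letters of the Sm site. U started 35.9% of sequences of Gm24265 (26.1 to 46.5%) and 41.4% of Gm24407 (28.6 to 55.1%), intervals that overlap.

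Genes without annotated copies show the full course of the pieces. Rmrp, on chromosome 4 from 43505660 to 43505930, had every window at 1 place, and its 105 sequences had 51 distinct 5′ ends and covered 93.7% of the transcript. The neighbouring 5′ ends at positions 126, 127 and 128 had 7, 7 and 6 sequences, and 38.1% of all its sequences started with U (28.8 to 48.1%). Rny3, the Y3 RNA gene on chromosome 6, had 62 sequences covering 98% of the transcript, 23 of them starting within 2 nt of its first base. Its most used 5′ end was the first base itself, with 9 sequences of 23 to 31 nt. Gm22710, an unnamed snRNA gene on chromosome 1 from 120355718 to 120355842, had 102 sequences, the highest density of the leading genes (81.6 per 100 nt), with U first in 53.9% (43.8 to 63.8%). All 102 also matched a transcript of 2900060B14Rik.

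**Figure D3:**
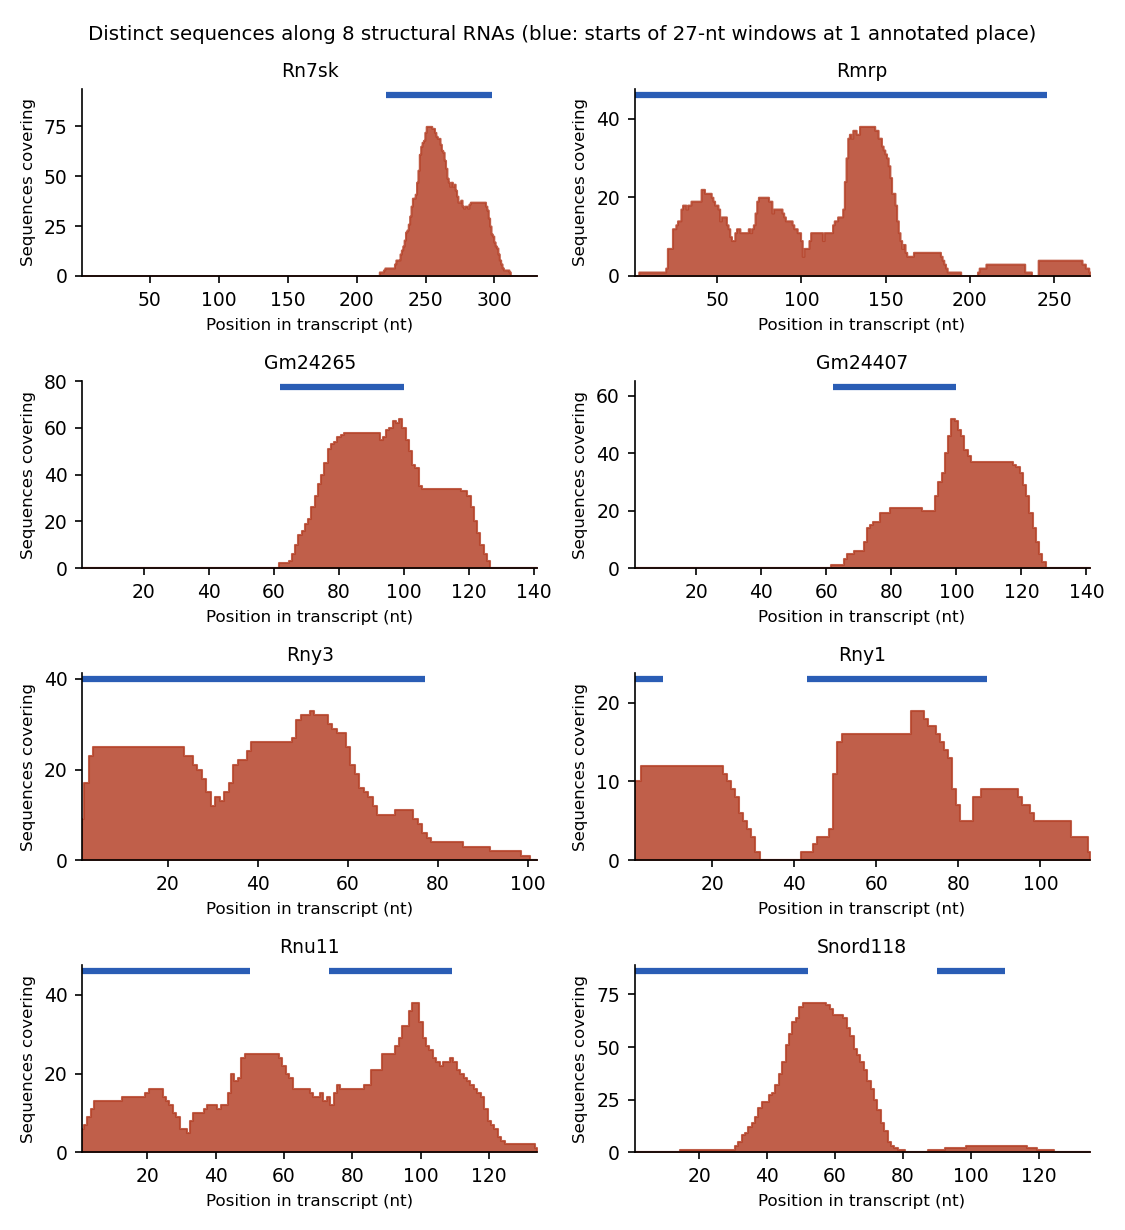
Number of distinct sequences covering each position (vertical axis) along the transcripts of 8 genes (horizontal axis, nt from the transcript start), with blue lines above the starts of 27-nt windows that occur at 1 annotated place. In Gm24265 and Gm24407 all sequences start under the blue line, which marks starts only, so coverage runs past its end. In Rn7sk sequences start at 217 to 283, and the line runs from 221 to 297. Rmrp and Rny3, with an unbroken blue line, are covered nearly throughout.

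Other named genes differed in which part was listed. Windows of 27 nt at 1 annotated place made up 78.7% of those in Rnu11, 65.1% in Snord118 and 59.3% in Rny1. They start at positions 1 to 49 and 73 to 108 in Rnu11 and at 1 to 51 and 90 to 109 in Snord118. In Rny1 they start at 1 to 7 and 43 to 86. Where the 5′ ends of these 3 genes lie was not separated from where their windows are shared. Rnu11, the U11 RNA of the minor spliceosome, had 81 sequences covering all of its 134 nt, and its most used 5′ end was the first base, with 6 sequences. Rny1, the Y1 RNA gene, 72.3% identical to Rny3, had 37 sequences, 12 of them within 2 nt of its start, and position 1 was its most used 5′ end with 10 sequences. Snord118, the C/D box RNA U8 that acts in ribosomal RNA processing, had 75 sequences. The most used of its 25 distinct 5′ ends was position 46, with 8 sequences, and 22.7% started with U (13.8 to 33.8%). Rpph1 had 52 sequences over 62.1% of its transcript with 34.6% U (22.0 to 49.1%), and 29 of them also matched a transcript of Ccnb1ip1. Scarna2, a guide RNA of Cajal bodies, had 27 sequences spread over 26 distinct 5′ ends, with U first in 22.2% (8.62 to 42.3%). Scarna10, annotated as a snoRNA gene, had 30, with U first in 13.3% (3.76 to 30.7%). The vault RNA gene Vaultrc5 had 30 sequences and the U7 gene Rnu7, whose RNA serves in histone mRNA processing, had 19. Rnu3a, a U3 gene, had 27 sequences, with U first in 70.4% (49.8 to 86.2%). The telomerase RNA gene Terc had 5.

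Copies related to named snRNAs made up several further leading genes. Gm25360 (68 sequences, U first in 51.5%), Gm22973 (36, 63.9%) and Gm26316 (14, 71.4%) were 97.9, 95.3 and 99.5% identical to Rnu2-10, and Gm22265 (29, 34.5%) was 91.4% identical to Rnu5g. Sequences in 6 snRNA genes at least 95% identical to Rnu2-10 numbered 124, with U first in 58.1% (48.9 to 66.9%). Against Rnu6, 8 genes of at least 95% identity held 19 sequences and 24 genes of 80 to 95% held 38. Gm25541, whose closest named gene was 53.2% identical, had 57 sequences, 22 of them within 2 nt of its start and 33.3% with U first (21.4 to 47.1%).

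Copies of 5S rRNA held 213 sequences in 41 genes. The identity classes were chosen after the values had been seen. In 6 genes at least 95% identical to Rn5s, 43.9% of 57 sequences started with U (30.7 to 57.6%). In 21 genes of 80 to 95% identity it was 63.4% of 71 (51.1 to 74.5%), and in 14 genes under 80% it was 80% of 85 (69.9 to 87.9%). Neighbouring classes overlapped in their intervals, and the first and last did not, but this rests on n-R5s136, 99.2% identical to Rn5s with U first in 2 of 21 sequences. Without it the first class was at 63.9% of 36 (46.2 to 79.2%), level with the second. In the last class Gm23799, 70.0% identical to Rn5s, had U first in 24 of 26, and without it the class was at 74.6% of 59 (61.6 to 85.0%). Only 2 of the 213 sequences (0.939%) started in the last of 3 equal parts of their transcript, where an even spread over possible starts would give 13.4%. Of the 213, 0 ended within 2 nt of a transcript end (exact Clopper-Pearson interval 0 to 1.72%). The even spread counts starts in shared windows too, and 177 of the 213 lay in genes sharing windows with another place. In n-R5s136, windows at 1 place start only between 7 and 33. In the 6 genes with every window at 1 place, 1 of 36 sequences started in the last part (13.6% expected). Of these 36, 0 ended at the transcript end (0 to 9.74%).

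Small nucleolar RNA sequences lay at the ends of the transcripts more often than an even spread of starts gives. The 5′ end was within 2 nt of the transcript start in 92 of 454 snoRNA sequences, 20.3% (16.7 to 24.3%), where 4.26% would be expected, and these came from 38 of 126 genes. The 3′ end was within 2 nt of the transcript end in 11.2% (8.48 to 14.5%), from 27 genes. In snoRNA genes with every window at 1 place, which share nothing with annotated copies, the share at the start was 23.6% of 288 (18.8 to 28.9%). For misc_RNA the share at the start was 9.70% (6.89 to 13.2%, 2.48% expected), with Rny3 and Rny1 holding 35 of the 36 sequences. Without Rny3 it was 4.21% (2.26 to 7.09%), without both Y RNAs 1 of 272 sequences started there, and without Rn7sk it was 14.1%. For snRNA it was 5.70% (4.16 to 7.61%, 2.90% expected), most of them in Gm25541 (22), Rnu11 (9) and Gm22265 (5). Without Gm25541 it was 3.01% (1.87 to 4.57%). In snRNA genes with every window at 1 place, 1 of 153 sequences started there (0.654%, 0.0165 to 3.59%, 3.10% expected). The other 42 lay in snRNA genes sharing windows with another place. For scaRNA 14.6% ended at the transcript end (7.80 to 24.2%, 1.74% expected).

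**Figure D4:**
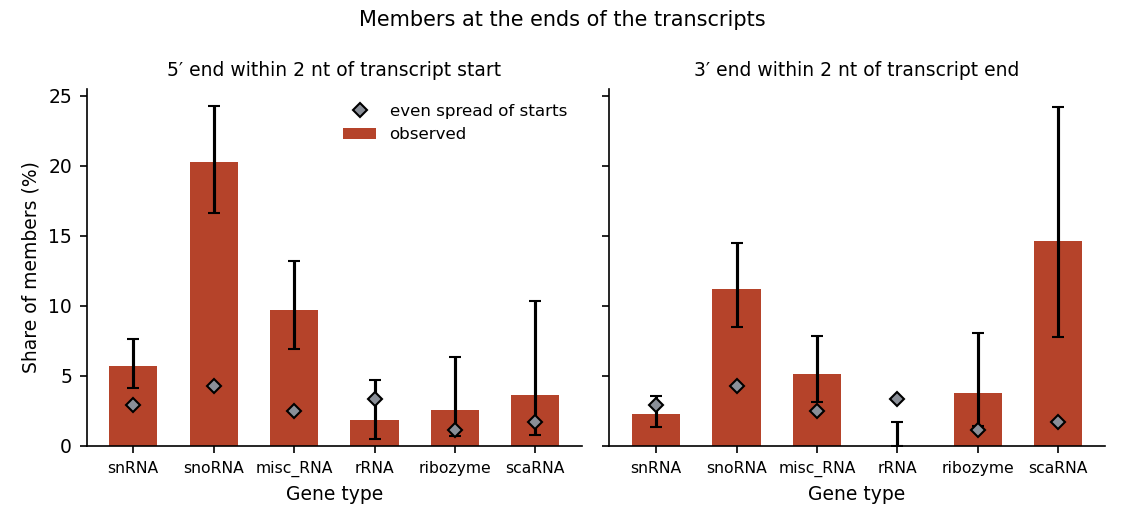
Share of sequences (percent, with exact 95% counting intervals) whose 5′ end lies within 2 nt of the transcript start (left) or whose 3′ end lies within 2 nt of the transcript end (right), by gene type, with diamonds for an even spread of starts. snoRNA sequences reach 20.3% at the start and scaRNA sequences 14.6% at the end.

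Positions in the named snoRNA classes rested in part on single genes. In 39 named C/D box genes (Snord symbols) 61.8% of 173 sequences started in the first of 3 equal parts of the transcript, where 45.9% would be expected, and 6.94% in the last, where 10.3% would be. In 18 named H/ACA genes (Snora symbols) 26.5% of 34 sequences ended within 2 nt of the transcript end (12.9 to 44.4%), against 5.78% of the C/D box sequences (2.81 to 10.4%). Snora24 gave 5 of these 9 H/ACA sequences, and without it the share was 13.8% (3.89 to 31.7%). Without Snord118, which had no sequence at its end, the C/D box share was 10.2% (5.0 to 18%), so the difference between the classes there rests on these genes. Snord45c had 5 of 5 sequences starting within 2 nt of the first base. The letters of the C box core, TGATGA, belong to the C/D box class, so their presence in its pieces is a description. They stand in 26.1% of 1507 annotated snoRNA transcripts of all classes and in 1.53% of the whole list. Searched on the sequence's own strand, they were present in 65.3% of the Snord sequences (57.7 to 72.4%) and 0 of 34 Snora sequences. Snord118 gave 70 of these 113 Snord sequences, and the other 38 genes held the letters in 43.9% of 98 (33.9 to 54.3%). The D box letters CTGA, found in 30.1% of Snord and 29.4% of Snora sequences, did not set the classes apart. Of 1383 annotated snRNA transcripts, 3.33% hold the Sm site letters ATTTTTG. These letters were present in 12.3% of snRNA sequences (10.1 to 14.9%) and in 0.218% of the whole list. Gm25360 and Gm22973, both copies of Rnu2-10, gave 65 of these 93 sequences. Without Gm25360 the share was 7.87% (5.97 to 10.1%), and without both it was 4.31% (2.88 to 6.17%).

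Several snoRNA and scaRNA genes overlap annotated microRNAs. Mature forms of 13 microRNAs (RefSeq, GRCm38.p6) lay in 9 of the genes, which held 29 sequences. Mir1839, typed as scaRNA on chromosome 7 from 88674741 to 88674867, had 16 of them, with a mean of 23.5 nt and U first in 0. Of these, 15 started within 2 nt of the first base of mmu-miR-1839-5p, 6 at that base, and 1 equalled the mature form. The most used 5′ end of Mir1839 lay 1 nt further downstream, with 7 sequences. Bases 2 to 8 of those 7 thus differ from the seed printed below. Gm24148, a snoRNA gene on chromosome 1, had 6 sequences, of which 5 started within 2 nt of the first base of mmu-miR-3535 and 1 equalled it. The mature sequences follow with the seed (bases 2 to 8) in capitals, and their seeds differ.
mmu-miR-1839-5p: aAGGUAGAuagaacaggucuug
mmu-miR-3535: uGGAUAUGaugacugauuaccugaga

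Listed sequences were dense inside most leading genes and sparse beside them. Of the 39 genes with 10 or more sequences, 37 had more sequences per 100 nt inside than listed sequences of either strand per 100 bp in the flanks of 1 kb on both sides, and 30 had over 10 times as many. These genes were taken for their many sequences inside, which favours such counts, so they are a description. Rnu11 had 60.4 per 100 nt inside and 0.300 in the flanks, Gm22710 81.6 and 0.4, and Gm25360 35.6 and 0.0500. The flanks of Gm23799, n-R5s136 and n-R5s156 held 0. The flanks of Gm24265 and Gm24407 include each other. Over all genes the U share followed no steady course with the flanks, at 55.3% (48.3 to 62.2%) for genes whose flanks held 0, 44.6% (41.3 to 47.9%) with 1 to 9 sequences, 37.2% (33.2 to 41.3%) with 10 to 49, and 49.3% (44.0 to 54.6%) with 50 or more.

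**Figure D5:**
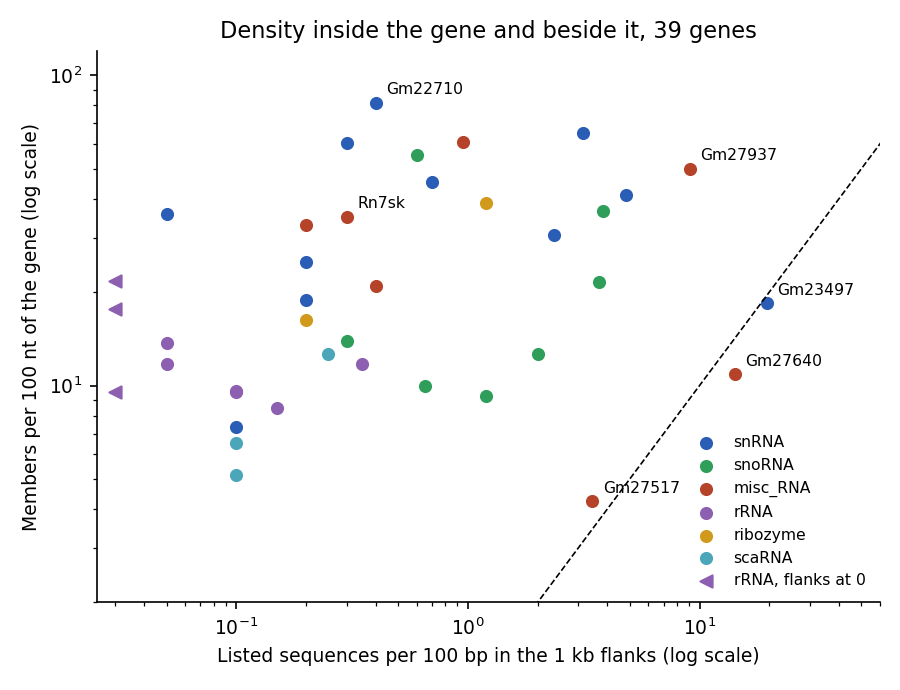
Sequences per 100 nt inside each of the 39 genes with 10 or more (vertical axis, log scale) against listed sequences per 100 bp in the 1 kb flanks (horizontal axis, log scale), coloured by gene type, with genes whose flanks held 0 at the left edge and a dashed line of equal density. Gm23497 and Gm27640 lie below the line, with 18.5 inside and 19.5 beside, and with 10.9 and 14.2.

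Some entries overlap longer transcripts with listed sequences in their flanks too. Gm23497, typed as snRNA, had 24 sequences, all of which also matched a transcript of Tfcp2l1, and they started with U in 91.7% (73.0 to 99.0%). Gm27937, Gm27640 and Gm27517, typed as misc_RNA on chromosome 11, all matched the long noncoding RNA Tug1. Together they held 70 sequences, with U first in 77.1% (65.6 to 86.3%), and density inside was 5.49 times that of the flanks in Gm27937, which had 44 of the 70, 1.23 times in Gm27517 and 0.767 times in Gm27640. Gas5, a noncoding host of C/D box snoRNAs, shared 42 sequences with 7 snoRNA genes, and 19% of them started with U (8.60 to 34.1%). Nop56, which also hosts snoRNAs, shared 10 sequences with 4 snoRNA genes, and 8 of them started with U, whereas Eif4a2 shared 14 with Snora81 and Snord2, and 1 of them started with U. In Gm23212, the richest of these (22 sequences), 13 started within 2 nt of the annotated snoRNA start. Over all hosts together, 592 sequences also matched a transcript of another gene type, 105 of them a further entry of Rmrp itself, and their U share of 42.9% (38.9 to 47.0%) overlapped the 45.1% (42.5 to 47.7%) of the others.

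Genes with a symbol of their own and genes with a numbered symbol (Gm, n-R5s or clone names) differed in the first base. The 845 sequences of named genes started with U in 33.7% (30.5 to 37%) and the 1187 of numbered genes in 52.1% (49.2 to 54.9%). Among misc_RNA genes the shares were 37.9% in named genes (31.9 to 44.2%) and 66.1% in numbered ones (56.8 to 74.6%), but this rests on Rn7sk and the Tug1 entries. Without Rn7sk the named share was 47.4% (38.9 to 56.1%), and without the 3 Tug1 entries the numbered share was 50% (35.2 to 64.8%). No difference was visible for snRNA, with 50.5% (40.4 to 60.6%) and 51.5% (47.5 to 55.4%). The mix of gene types also differs between named and numbered genes, and its part in the difference was not tested.

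Most 5′ ends had a single listed 3′ end. The 2032 sequences had 1134 distinct 5′ ends, of which 750 had 1 listed 3′ end, 305 had 2 to 4 and 79 had 5 or more. U was the first base of 37.7% of 5′ ends with 1 listed 3′ end (34.3 to 41.3%), 48.9% of those with 2 to 4 (43.1 to 54.6%) and 46.8% of those with 5 or more (35.5 to 58.4%). The base after the 3′ end was U in 29.1% (27.1 to 31.1%), next to the 26.5% U of the transcripts.

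Antisense sequences were few. Outside the left-out window 120 listed sequences matched the opposite strand of 39 structural RNA genes, 100 of them at misc_RNA entries, and 93 were sense to a gene of another type, such as 5430416N02Rik opposite Gm27286 (19 sequences) and H19 opposite Gm27786 (12). Of the 120, 73.3% started with U (64.5 to 81.0%). Genes with sequences on both strands numbered 4. They were Rmrp (1 antisense, 105 sense), Gm27286 (19 and 1), Snord49a (1 and 2) and Gm22025 (1 and 1). Each had a single sequence on at least 1 strand, so pairs within a gene share it and are not independent. Over all of these antisense matches 2 pairs of sequences had the 10-nt overlap of 5′ ends left by the amplification cycle, against 7 pairs each at 18 and 19 nt.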

How the data were processed

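Small RNAs from 3 immunoprecipitates of mouse testis, 1 library per group, were deposited by the authors as 1 list of distinct sequences with chromosome, start and end, on NCBI mouse build 37 per the file headers (mm9 per the submitters' processing notes). The deposited list holds no measured unit: no read number, strand or library. The sources used here do not name the aligner or the mismatches it allowed. The comparisons between libraries set out in the design need a library for each sequence and were not computed.

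Sequences of 18 to 36 nt were searched exactly and on both strands in GENCODE vM21 transcripts (GRCm38) by sequence, never by coordinate, and the search was tested on planted sequences. Shares have 95% intervals by the exact Clopper-Pearson method, for counting error alone. An even spread of starts gives each possible start of a sequence in its transcript the same weight, starts in shared windows included. Identity between transcripts is 1 minus edit distance over the longer length (edlib 1.3.9.post1). Python 3.11.15, pandas 2.3.3 and scipy 1.17.1 were used. No test was run, and the planned counts of ACA and ATTTTTGG letters were not made. The gene types, members and gene families were chosen with earlier results of these data known. Named genes are the 25 with most sequences, the richest of each family, and genes given as examples, the last chosen after their values were seen.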

Additional observations from a re-analysis of the deposited data

How the results depend on the processing

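No paired analysis was possible because each group has 1 library and the list names none. Of 45 alternative values 29 stayed within the counting interval of the value reported, 16 moved outside it and 0 changed direction, which says little about shares of a single list. Matching on any chromosome and leaving out sequences matching several classes could change nothing. The sequences matching a gene on another chromosome numbered 0, and none matched more than a single gene type. Their values are counted among the 29, though fixed in advance. Keeping 24 to 32 nt moved 0 of the values it was run on. With each 5′ end counted once (its longest sequence kept), U first was 41.4%, the share of 24 to 32 nt 97.4%, the snRNA share 32.3% (37.1% as reported), starts at the transcript start 6.97% (8.96% as reported) and ends at the transcript end 8.02% (5.17% as reported). Counting each 5′ end once could not be run for the share of the list, which carries no strand. Without sequences that also match another gene type, structural RNAs were 0.0645% of the list, the snRNA share 42.1% and ends at the transcript end 3.98%. Without Rn7sk the snRNA share was 39.4%. Settings chosen after seeing the data were named genes only (0.0381% of the list, U first 33.7%, snRNA share 12%) and genes without shared windows only (0.0384%, snRNA share 18%, starts at the transcript start 11.2%, ends at the transcript end 8.33%). Shares over sets of genes were also taken without single genes or small groups of genes, a choice made after seeing the data. Of 51 such values 37 stayed within the counting interval and 14 moved. The cause of these shifts was not tested beyond the sequences each setting removes. Depth per library is unknown, and RNAs with identical copies cannot be judged from this list.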
